A study of Mus musculus with 4 samples.

Results

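Collagens, laminins and integrins, the protein chains that build the extracellular matrix and the receptors that bind cells to it, were followed at the transcript level in 4 cultures of the wild-type mouse R1 embryonic stem cell (ESC) line. The genes were taken by symbol: every collagen chain, laminin chain and integrin alpha or beta subunit in the deposited expression table, which gave 81 genes of 24421 entries. They comprised 44 collagen chains, 11 laminin chains, 18 integrin alpha subunits and 8 integrin beta subunits. RNA-seq compared ESCs with epiblast-like cells (EpiLCs), and ESCs given the PRC2 inhibitor EED226 with ESCs given its solvent DMSO, with 1 library per condition.

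ESCs of this line were grown on mouse embryonic fibroblast feeders in medium with 15% serum and 1000 U/mL LIF. For the ESC and EpiLC samples, feeders were removed by a short plating step on gelatin, and by the methods the cells then received 1 µM PD0325901, 3 µM CHIR99021 and LIF. The label of the ESC library names LIF but not these inhibitors. EpiLCs were collected 72 h after induction, which began without LIF and continued in a medium with 20% knockout serum replacement, 30 ng/ml FGF2 and 0.6 µM JAK inhibitor. The DMSO and EED226 cultures were kept in ESC medium with LIF for 48 h, the latter with 10 µM EED226. Feeder removal before this treatment is not described in the sources used here. Because there was 1 library per condition, no test between conditions was possible, and no difference given here has a replicate check.

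Laminins are trimers of an alpha, a beta and a gamma chain, and with collagen IV they form the sheets called basement membranes. Fibrillar collagens form the fibers of connective tissue and are made in large amounts by fibroblasts. Integrins are pairs of an alpha and a beta subunit in the cell membrane that bind laminins, collagens, fibronectin or other cells. In the mouse embryo at implantation, the epiblast lies on a basement membrane rich in laminin and collagen IV, part of which is secreted by the neighboring endoderm.

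Levels are given as TPM, a count of transcripts scaled to the same total in each library, which corrects for gene length and for sequencing depth, so that levels of different genes can be set side by side. Library totals ranged from 34440050 reads in EpiLCs to 47622558 reads in ESCs, and the 81 genes held between 0.340 and 0.454% of them. The pluripotency gene *Pou5f1* was at 2222 TPM in ESCs, 1109 TPM in EpiLCs, 2142 TPM with DMSO and 1873 TPM with EED226. *Fgf5*, a marker of primed cells, was at 0.17, 75.5, 9.91 and 10.4 TPM in the same order. *Klf4*, a naïve marker, was at 161, 6.03, 44.5 and 60.7 TPM. *Otx2*, another primed marker, was at 55.6, 67.1, 90.8 and 87.1 TPM, so its level with DMSO was above that in EpiLCs. *Dnmt3b* was at 134, 446, 472 and 366 TPM. The DMSO culture therefore differed from the ESC culture in *Fgf5*, *Klf4* and *Dnmt3b*. By the 2-fold limit defined below, 2 of 12 listed pluripotent-cell markers passed upward in EpiLCs over ESCs and 7 downward. In DMSO over ESCs, 2 passed upward and 2 downward. Of the 81 genes, 57 reached 1 TPM in at least 1 library, 22 reached 10 TPM, and 5 (*Col18a1*, *Itgb1*, *Lama5*, *Lamb1* and *Lamc1*) reached 100 TPM. The other 24 stayed below 1 TPM in all 4 libraries, and *Itgad*, a leukocyte subunit, had no reads. In these bulk samples, fewer cells of a type and less RNA per cell cannot be told apart.

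**Figure D1:**
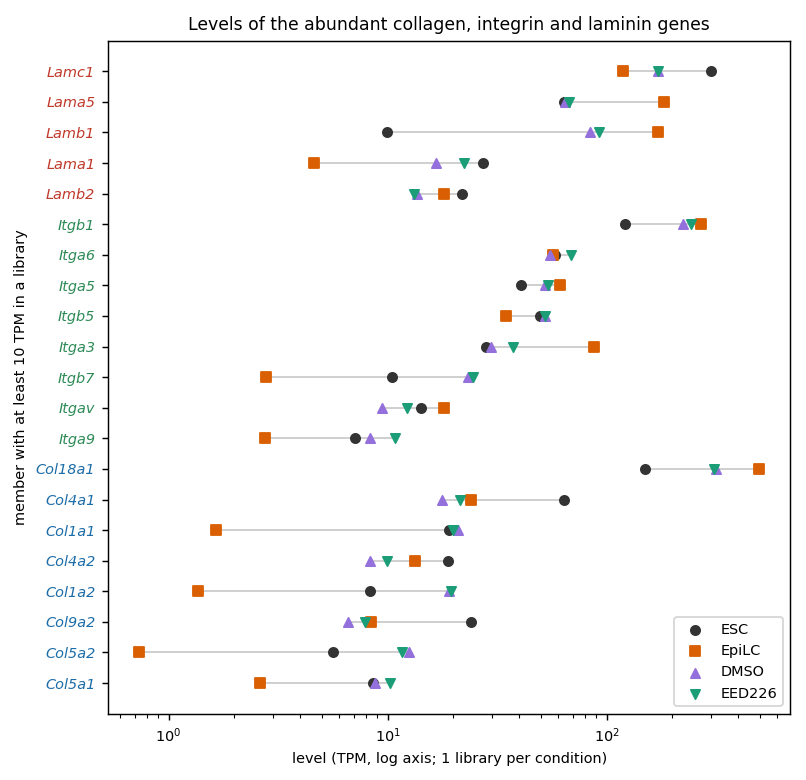
Level in TPM (log axis) of 21 of the 22 genes that reached 10 TPM, with 1 point per library and a grey line over their range. *Col18a1* in EpiLCs (499 TPM) is the highest value, *Lamc1* (300.2 TPM) is the highest in ESCs, and the EpiLC squares of *Lama1*, *Col1a1*, *Col1a2*, *Col5a2* and *Itgb7* lie to the left of their other points.

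To see which matrix and receptor genes differ between naïve and primed cells, EpiLCs were set against ESCs. The laminin beta chain *Lamb1* was 17.2-fold higher in EpiLCs, and *Lama5* and *Col18a1* were 2.87-fold and 3.33-fold higher. The laminin chains *Lama1* and *Lamc1*, the collagen IV chain *Col4a1* and most fibrillar collagens were lower. Among integrins, *Itgb1* and *Itga3* were higher in EpiLCs, and *Itgb7* and *Itgb3* were lower. A gene was counted as different at a ratio of at least 2-fold, taken after adding 0.1 TPM to both values, with at least 1 TPM in either library. Of the 52 genes that passed this filter, 22 (42.3%) were higher in EpiLCs, while 29.2% of the 13535 genes of the whole table that passed the same filter were. A lower level was seen for 18 of the 52 (34.6%), while 11.6% of all genes were lower. The median log2 ratio of the 52 genes was 0.47, that of all genes 0.33.

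These transcripts are long, with a median of 5624 bases, while all genes with at least 1 TPM have a median of 2790 bases. Longer genes tended to have higher ratios in EpiLCs, so genes of like length, between 4230 and 7091 bases, were used as a second background. Of the 2555 genes of like length, 37.2% were at least 2-fold higher in EpiLCs and 6.42% were lower. The 27 collagens, laminins and integrins within these lengths had 9 higher (33.3%) and 10 lower (37%). The share that was higher was close to that of genes of like length, and the share that was lower was above it. Without the feeder-type collagens described below, 9 of 23 (39.1%) were higher and 6 (26.1%) were lower. After the trend along gene length was removed from all ratios, 13 genes (25%) remained higher and 22 (42.3%) were lower, while 21.2% and 15.5% of all genes were, and the median log2 ratio of the 52 genes was -0.34. The share that was higher was then close to that of all genes. The 13 were all among the 22 genes counted before, and the 18 lower genes all remained lower. The higher calls lost with the trend removed included *Col18a1* (log2 ratio 1.73 before, 0.94 after), *Lama5* (1.52 and 0.12), *Itga3* (1.64 and 0.97) and *Itgb1* (1.15 and 0.66), so the higher level of these genes in EpiLCs relative to genes of their length was smaller than the TPM ratio.

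**Figure D2:**
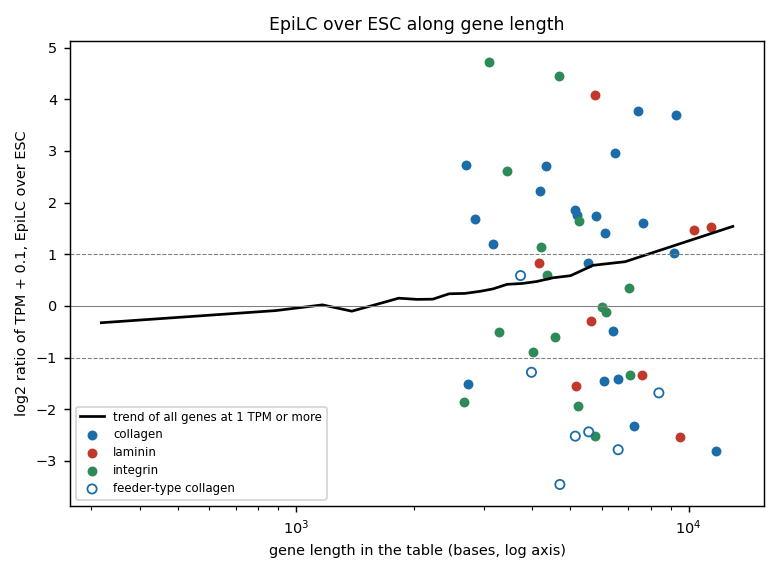
Log2 ratio of TPM + 0.1 in EpiLCs over ESCs against gene length in bases (log axis) for the 52 genes with at least 1 TPM in either library, with the trend of all genes as a black line and dashed lines at 2-fold. The trend climbs with length, and of the feeder-type collagens (open circles) 6 of 7 lie below the lower dashed line.

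Laminin chains differed in makeup between the ESC and EpiLC libraries, and the beta chains also differed between the ESC library and the DMSO culture. *Lamb1* (chromosome 12, 31265234 to 31329644, GRCm38) encodes a beta chain of the laminins of early embryonic basement membranes. It was at 9.97 TPM in ESCs, 171 TPM in EpiLCs, 84.3 TPM with DMSO and 92.3 TPM with EED226. The ESC library was low and the other 3 were high, with a ratio of 17.2 in EpiLCs over ESCs (95% counting interval 16.3 to 18.2). The log2 ratio was 4.09, and 3.30 with the length trend removed. This interval, like every interval here, covers counting error only. *Lamb2*, the other abundant beta chain, was at 22.0, 18.1, 13.6 and 13.2 TPM in the order ESC, EpiLC, DMSO and EED226. *Lamb2* made up 67.2% of the laminin beta TPM in ESCs, and *Lamb1* made up 89.8% of it in EpiLCs, 85.4% with DMSO and 86.7% with EED226.

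*Lama1* and *Lama5* encode alpha chains, the part of laminin that integrins bind. *Lama1* (chromosome 17, 67697259 to 67822647) was at 27.4 TPM in ESCs, 4.63 TPM in EpiLCs, 16.6 TPM with DMSO and 22.5 TPM with EED226, lowest in EpiLCs with a ratio to ESCs of 0.17 (0.156 to 0.183). *Lama5* (chromosome 2, 180176373 to 180225859) was at 63.7, 183, 64.7 and 67.2 TPM, and only the EpiLC library stood apart from the other 3, at 2.87 times the ESC level (2.82 to 2.93). *Lama5* was the main alpha chain in each library, with 68.5% of the alpha TPM in ESCs and 95.7% in EpiLCs. Its level was 2.33 times that of *Lama1* in ESCs, 39.5 times in EpiLCs, 3.89 times with DMSO and 2.99 times with EED226. *Lama3*, a chain of epithelial laminin, was at 0.99, 2.92, 1.27 and 1.31 TPM. *Lama2* and *Lama4* stayed below 1 TPM in all 4 libraries.

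*Lamc1* (chromosome 1, 153218922 to 153332786), the gamma chain shared by most laminins, was the most abundant laminin transcript of the ESC library. It stood at 300.2 TPM there, against 120 TPM in EpiLCs and 172 and 173 TPM in the DMSO and EED226 cultures. The EpiLC level was 0.40 times the ESC level (0.391 to 0.406). *Lamb3*, a beta chain of epithelial laminin, was at 0.77, 1.45, 0.76 and 0.96 TPM, and *Lamc3* did not exceed 0.19 TPM. Summed over chains, alpha and beta transcripts were close in EpiLCs, at 191 TPM each, while ESCs had 92.9 TPM of alpha and 32.7 TPM of beta transcripts.

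**Figure D3:**
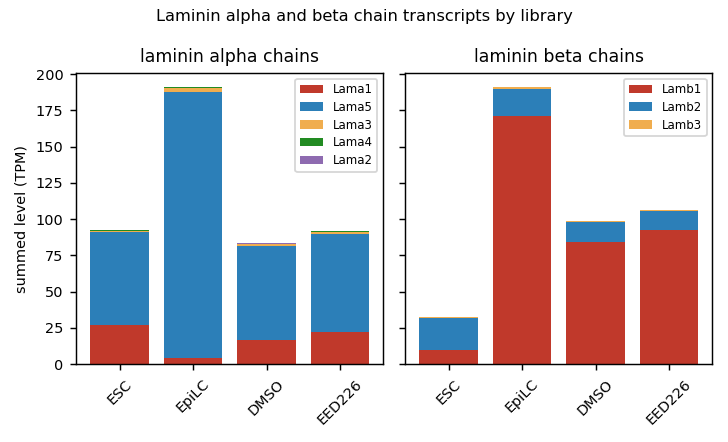
Summed level in TPM of laminin alpha and beta chain transcripts in each library, with bars split by gene. The beta bar is at 32.7 TPM in ESCs and at 191 TPM in EpiLCs, mostly *Lamb1* in the latter, and the alpha bar at 92.9 and 191 TPM, mostly *Lama5*.

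Among collagens, *Col18a1* (chromosome 10, 77052178 to 77166548), a basement membrane collagen that carries heparan sulfate and gives rise to endostatin, was by far the most abundant. It was at 149.99 TPM in ESCs, 499 TPM in EpiLCs, 315 TPM with DMSO and 310 TPM with EED226, so that ESCs were lowest and EpiLCs highest. The ratio in EpiLCs over ESCs was 3.33 (3.27 to 3.38), and *Col18a1* made up 46.5% of all collagen TPM in ESCs and 83.5% in EpiLCs. The collagen IV chains *Col4a1* and *Col4a2* are transcribed head to head from overlapping starts on chromosome 8 (11198423 to 11312826 and 11312805 to 11449287). *Col4a1* was at 64.1, 24.0, 17.7 and 21.4 TPM in ESCs, EpiLCs, DMSO and EED226, and *Col4a2* at 18.9, 13.4, 8.36 and 9.98 TPM. ESCs were highest for both, and the level of *Col4a1* over that of *Col4a2* was 3.39 in ESCs and between 1.79 and 2.14 in the others. The ratio in EpiLCs over ESCs was 0.375 (0.358 to 0.392) for *Col4a1* and 0.71 (0.663 to 0.757) for *Col4a2*, which passed the 2-fold limit only with the length trend removed. Of the other collagen IV pairs, *Col4a5* on the X chromosome was at 0.22, 2.39, 1.10 and 1.26 TPM, 10.7-fold higher in EpiLCs (7.48 to 15.9), while its neighbor *Col4a6* had at most 4 reads in a library. *Col4a3* and *Col4a4* had at most 2 reads.

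*Col9a2*, a collagen of cartilage fibril surfaces, was at 24.2 TPM in ESCs, 8.42 TPM in EpiLCs, 6.58 TPM with DMSO and 7.92 TPM with EED226, and ESCs again stood above the other 3. The collagen VI chains split by gene. *Col6a4* was at 0.09, 2.50, 0.64 and 0.50 TPM and *Col6a5* at 0.06, 1.96, 0.56 and 0.55 TPM, 27.4-fold (16.6 to 48.5) and 33.0-fold (19.0 to 62.7) higher in EpiLCs on 16 and 13 reads in ESCs. *Col8a2*, a short-chain collagen, was at 0.31, 2.60, 1.25 and 2.19 TPM. Its partner *Col8a1* was at 0.82, 0.01, 2.07 and 1.93 TPM, with 1 read in EpiLCs. *Col12a1*, which coats collagen I fibrils, was at 1.29, 0.10, 3.36 and 3.85 TPM. Counted as a class, 14 collagen chains were higher and 11 lower in EpiLCs of 28 with at least 1 TPM, while 29.2% and 11.6% of all genes were. With the length trend removed these were 9 and 12 of 28, beside 21.2% and 15.5% of all genes. The collagens among the higher genes also included *Col2a1*, a cartilage collagen with 2.63 and 9.79 TPM in ESCs and EpiLCs, and *Col13a1*, *Col16a1*, *Col20a1*, *Col22a1*, *Col26a1* and *Col9a3*, at 1.28 to 5.55 TPM in EpiLCs. Among the lower genes, *Col5a3* had 5.46 and 1.93 TPM. *Col7a1*, the collagen of anchoring fibrils, singled out after its values were seen, had 0.76 and 1.65 TPM in ESCs and EpiLCs, and its log2 ratio of 1.02 became -0.14 with the trend removed.

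The collagens that fibroblasts make in bulk were read apart, since ESCs of this line are kept on fibroblast feeders. This group held *Col1a1* and *Col1a2* (the chains of collagen I), *Col3a1*, *Col5a1*, *Col5a2*, *Col6a1*, *Col6a2* and *Col6a3*. Summed, they were at 45.6 TPM in ESCs, 8.99 TPM in EpiLCs, 67.8 TPM with DMSO and 67.6 TPM with EED226. EpiLCs were lowest by far, and the DMSO and EED226 sums were highest. *Col1a1* (chromosome 11, 94936224 to 94953042) was at 19.0, 1.65, 21.1 and 20.0 TPM, a ratio of 0.086 in EpiLCs over ESCs (0.071 to 0.104). *Col1a2* was at 8.29, 1.36, 19.2 and 19.6 TPM, and *Col5a2* at 5.63, 0.73, 12.5 and 11.6 TPM. Both were lower in EpiLCs and 2.31-fold and 2.22-fold higher with DMSO than in ESCs. *Col5a1* was at 8.60, 2.61, 8.75 and 10.3 TPM and *Col3a1* at 1.40, 0.18, 1.98 and 1.66 TPM. In all, 6 of the 7 with at least 1 TPM were at least 2-fold lower in EpiLCs, and the exception was *Col6a2*, with 1.29 and 1.99 TPM in ESCs and EpiLCs. *Col6a1* was at 1.19, 0.43, 1.23 and 1.52 TPM. *Col6a3*, at 0.17 and 0.04 TPM in ESCs and EpiLCs, was not counted there, and was at 1.75 and 1.81 TPM with DMSO and EED226.

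Of 16 feeder fibroblast markers, 10 were at 1 TPM or above in ESCs, 10 in EpiLCs, 11 with DMSO and 11 with EED226. Their summed level was 73.9, 413, 236 and 240.2 TPM, of which the smooth muscle gene *Tagln* alone made up 13.5, 337, 104 and 111 TPM. Of the 11 markers at 1 TPM or above in ESCs or EpiLCs, 3 passed the 2-fold limit upward in EpiLCs (*Tagln*, *Acta2* and *Dcn*) and 3 downward (*S100a4*, *Fbln2* and *Mfap5*). Among all genes, 29.2% were higher and 11.6% lower. Of the 11 at 1 TPM or above in ESCs or with DMSO, 7 were at least 2-fold higher with DMSO than in ESCs and 1 was lower. Among all genes these shares were 15.6% and 9.02%. *Acta2*, the smooth muscle actin, was at 13.7, 37.0, 41.8 and 36.9 TPM, and *Dcn* at 0.12, 3.21, 0.14 and 0.070 TPM. *S100a4* was at 6.30, 0.79, 34.0 and 28.0 TPM. *Postn* had 0.37 TPM in ESCs, no reads in EpiLCs, and 2.27 and 2.65 TPM in the DMSO and EED226 cultures. *Lum*, *Twist2* and *Fap* also had no reads in EpiLCs, and at most 3 reads in ESCs. The part of residual feeder cells in the collagen levels was not tested.

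Integrins of the laminin-binding and fibronectin-binding kinds made up most of the receptor transcripts. *Itgb1* (chromosome 8, 128685654 to 128733200), the beta subunit with the most alpha partners, was at 122 TPM in ESCs, 270.2 TPM in EpiLCs, 222 TPM with DMSO and 244 TPM with EED226. ESCs were lowest, the ratio in EpiLCs over ESCs was 2.21 (2.16 to 2.27), and *Itgb1* supplied 63.6% of the beta subunit TPM in ESCs and 85.7% in EpiLCs. *Itga3* (chromosome 11, 95044474 to 95076801), a laminin receptor subunit, was at 28.2, 88.0, 29.6 and 37.5 TPM, with EpiLCs 3.12-fold above ESCs (3.00 to 3.25). *Itga6*, the other abundant laminin receptor subunit, was at 58.2, 57.0, 55.3 and 69.0 TPM, and its counting interval in EpiLCs over ESCs held 1 (0.947 to 1.01). *Itga6* was the most abundant alpha subunit in the other 3 libraries, and *Itga3* was in EpiLCs, with 36.1% of the alpha TPM. *Itga5*, which with *Itgb1* forms the classical fibronectin receptor, was at 40.8, 61.6, 52.5 and 54.3 TPM, and *Itgav*, which binds RGD ligands with several beta partners, at 14.2, 18.1, 9.47 and 12.3 TPM.

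The partners of *Itgav* differed in direction. *Itgb5* was at 49.6, 34.8, 52.4 and 52.5 TPM in ESCs, EpiLCs, DMSO and EED226. *Itgb3* (chromosome 11, 104608000 to 104670476) was at 5.55, 0.88, 0.92 and 1.76 TPM, highest in ESCs with a ratio of 0.159 in EpiLCs (0.124 to 0.201). *Itgb8*, a partner known for activating latent TGF-beta, had no reads in ESCs, 120 reads or 2.54 TPM in EpiLCs, 0.26 TPM with DMSO and 0.33 TPM with EED226. The ratio was 61.7 against a floor of 3 reads in the ESC library. The 95% counting interval, taken without this floor on the 0 reads of the ESC library, had a lower limit of 49.4.

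Subunits known mainly from blood cells were also detected. *Itgb7*, a lymphocyte subunit, was at 10.4, 2.79, 23.4 and 24.5 TPM, lowest in EpiLCs (ratio 0.267, 0.217 to 0.327) and highest in the treated pair of cultures. *Itgam*, the alpha subunit of a receptor of myeloid cells, was at 0.27, 8.05, 0.39 and 0.53 TPM, with only the EpiLC library high (ratio 29.5, 20.5 to 44.2). Its partner *Itgb2* stayed between 0.16 and 0.32 TPM. In the GENCODE annotation, 68.7% of the exonic bases of *Itgam* are shared with another gene model on the same strand, *Gm49368*, so that reads in them cannot be assigned to one gene with certainty. The leukocyte marker *Ptprc* had no reads in ESCs or EpiLCs and was at 0.10 and 0.04 TPM with DMSO and EED226. The 8 endothelial and blood markers summed to between 37.7 and 67.0 TPM, most of it *Pecam1*. *Itgal*, another partner of *Itgb2*, was at 5.16, 1.27, 2.64 and 2.71 TPM, and *Itga2b*, known from platelets, at 0.49, 3.55, 0.33 and 0.62 TPM. *Itga9*, a tenascin receptor subunit, was at 7.08, 2.75, 8.30 and 10.8 TPM. Of 10 alpha subunits with at least 1 TPM, 3 were higher and 2 lower in EpiLCs (2 and 4 with the length trend removed), and of 6 beta subunits 2 were higher and 2 lower (1 and 2). The share of alpha subunits that was higher was close to the 29.2% of all genes; 11.6% of all genes were lower.

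**Figure D4:**
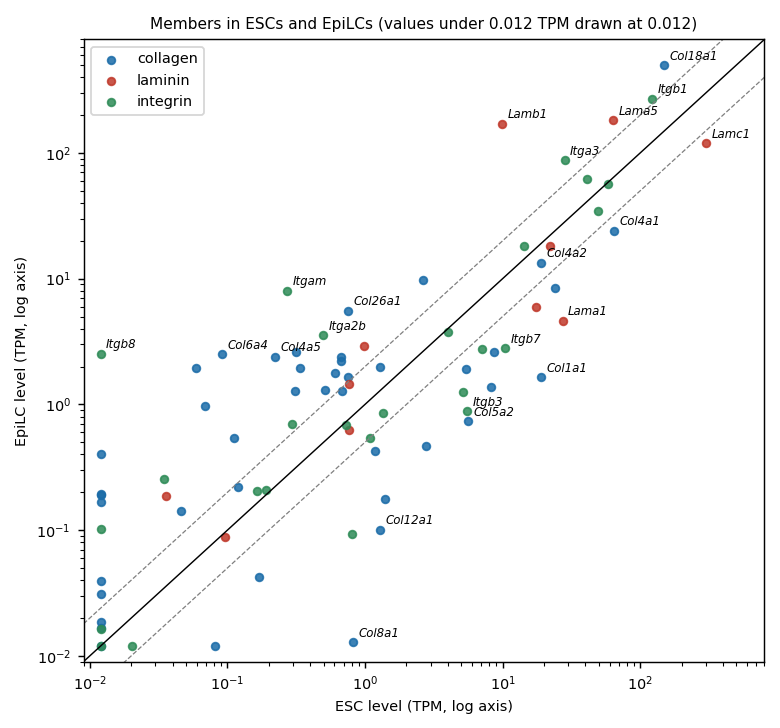
Level in EpiLCs against level in ESCs for the 81 genes, both in TPM on log axes, with 1 point per gene, the line of equal levels and dashed lines at 2-fold. *Lamb1* (9.97 and 171 TPM) lies far above the line among abundant genes, and *Lamc1*, *Lama1*, *Col4a1* and *Col1a1* lie below the lower dashed line.

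Promoter sequence is shown for the genes that were at least 2-fold higher in EpiLCs and at 50 TPM or above there, 5 genes in all. The bases come from RefSeq on GRCm38.p6, run 5′ to 3′ in the direction of the gene, and stop before the first annotated exon. Capitals mark GGGCGG on either strand, the core of the GC box that Sp1-family factors bind. The runs lie at chr12:31265043-31265145 on the plus strand for *Lamb1*, chr2:180225905-180226109 on the minus strand for *Lama5*, chr10:77166549-77166780 on the minus strand for *Col18a1*, chr11:95076845-95076964 on the minus strand for *Itga3* and chr8:128685404-128685653 on the plus strand for *Itgb1*.
Lamb1: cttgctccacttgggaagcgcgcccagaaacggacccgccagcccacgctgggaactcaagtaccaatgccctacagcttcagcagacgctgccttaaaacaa
Lama5: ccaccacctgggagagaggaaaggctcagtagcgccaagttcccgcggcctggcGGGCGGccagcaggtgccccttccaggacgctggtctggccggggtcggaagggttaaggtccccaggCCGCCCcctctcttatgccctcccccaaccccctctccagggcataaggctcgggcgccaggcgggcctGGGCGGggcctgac
Col18a1: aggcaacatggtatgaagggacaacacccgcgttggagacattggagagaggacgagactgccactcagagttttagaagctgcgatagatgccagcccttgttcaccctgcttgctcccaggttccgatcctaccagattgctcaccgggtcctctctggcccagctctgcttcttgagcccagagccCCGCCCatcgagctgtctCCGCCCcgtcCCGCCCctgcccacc
Itga3: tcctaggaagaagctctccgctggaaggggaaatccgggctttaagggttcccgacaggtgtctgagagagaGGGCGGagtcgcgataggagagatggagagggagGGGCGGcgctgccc
Itgb1: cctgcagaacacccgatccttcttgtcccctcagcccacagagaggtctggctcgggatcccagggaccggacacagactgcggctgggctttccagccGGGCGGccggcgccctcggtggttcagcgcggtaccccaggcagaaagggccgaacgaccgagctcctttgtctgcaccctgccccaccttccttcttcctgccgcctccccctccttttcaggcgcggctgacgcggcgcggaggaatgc

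GGGCGG was searched in the 250 bases before each start, counted from the outermost start where a gene has several. It was found 4 times for *Lama5*, 3 times for *Col18a1*, 3 times for *Itga3*, 2 times for *Lamb1* (in bases past the run shown) and 1 time for *Itgb1*. The runs shown hold 3 of those of *Lama5* and 2 of those of *Itga3*. Of the 81 genes, 58 matched the RefSeq table by symbol, with 64 starts, of which 48.4% held the motif, while 32.7% of all 32851 promoters did. TATAAA was found at 7.81% of the 64 starts and 12.4% of all promoters, CCAAT at 26.6% and 33.8%, and TGANTCA, the AP-1 motif, at 3.12% and 6.75%. Both strands were searched and each motif was counted on its own, overlapping or not. A match is a string of letters and not a measured binding site.

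The DMSO culture allowed the ESC values to be read beside a second ESC culture. Medium, DMSO, any remaining feeder cells and library cannot be told apart in this comparison. Of the 45 genes that reached 1 TPM in one or the other, 15 (33.3%) were at least 2-fold higher with DMSO than in ESCs and 8 (17.8%) were lower. Among all 12945 genes these shares were 15.6% and 9.02%. Of the 27 genes of like length, 10 (37%) were higher and 6 (22.2%) lower, while all genes of like length gave 19.7% and 5.37%. With the length trend removed the counts were 8 higher and 14 lower, beside 11.7% and 10.8% of all genes, and centred on the median gene they were 11 and 9, beside 12.7% and 10.9%. *Lamb1* was 8.45-fold higher with DMSO than in ESCs (7.98 to 8.95), *Col18a1* was 2.10-fold higher, and *Col4a1* and *Itgb3* had ratios of 0.275 and 0.166.

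EpiLCs were therefore also set against both ESC cultures at once. Of 56 genes with at least 1 TPM in any of the 3 libraries, 15 (26.8%) were at least 2-fold higher in EpiLCs than in ESCs and with DMSO, while 14.9% of all 13760 genes were. They included *Lamb1*, *Lama5*, *Lama3*, *Itga3*, *Itgam*, *Itgb8*, *Col4a5*, *Col6a4*, *Col6a5* and *Col8a2*. Against DMSO, *Lamb1* (171 TPM in EpiLCs, 84.3 TPM with DMSO) and *Col8a2* (2.60 and 1.25 TPM) passed the limit only narrowly. These counts against both cultures were not set against genes of like length. Of the 15, *Lama5*, *Lama3*, *Itga3*, *Col13a1* and *Col22a1* lost the higher call against ESCs with the length trend removed. The trend was not removed from the ratios of EpiLCs to DMSO. Another 14 (25%) were at least 2-fold lower than both, while 5.6% of all genes were. This group held *Lama1*, *Itgb7*, *Itga9*, *Col8a1*, *Col12a1* and 6 of the feeder-type collagens. *Lamc1*, *Col4a1*, *Col9a2*, *Itgb3*, *Col18a1* and *Itgb1* passed the limit against ESCs and not against DMSO.

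To ask which of these genes respond to PRC2 inhibition, the EED226 culture was set against DMSO. Few of them differed, and *Col18a1*, *Lamc1*, *Lama5* and *Lamb1* had ratios between 0.98 and 1.10. *Lama1*, *Col4a1* and *Col4a2* had ratios of 1.35, 1.21 and 1.19. At a limit of 1.5-fold, 5 of 45 genes (11.1%) were higher with EED226, while 5.26% of all 12763 genes were. None was lower, as against 1.02% of all genes. Among genes of like length, 3 of 27 (11.1%) were higher and none lower, while all genes of like length gave 5.72% and 0.122%. The median log2 ratio was 0.17 for the 45 genes, 0.085 for all genes and 0.16 for genes of like length.

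The 5 higher genes were *Itga1*, *Itgb3*, *Col27a1*, *Col8a2* and *Col11a1*, each below 3 TPM in both libraries. *Itga1*, a collagen receptor subunit, had 78 reads (0.74 TPM) in the DMSO library and 185 reads (1.51 TPM) in the EED226 library, a ratio of 2.04 (1.56 to 2.69). *Itgb3* was at 0.92 and 1.76 TPM, a ratio of 1.91 (1.49 to 2.46). *Col27a1*, a fibrillar collagen of cartilage, was at 1.15 and 2.09 TPM, a ratio of 1.81 (1.49 to 2.21), and *Col8a2* at 1.25 and 2.19 TPM, a ratio of 1.75 (1.37 to 2.27). *Col11a1*, a minor fibrillar chain, was at 1.05 and 1.66 TPM, a ratio of 1.58 (1.28 to 1.97). The calls of *Col27a1* and *Col11a1* were lost with the length trend removed, which left 3 of 45 (6.67%) higher and none lower, beside 3.59% and 1.12% of all genes. All 5 were lost when 1 TPM was added in place of 0.1 TPM. In the other 2 libraries, *Itga1* was at 0.19 and 0.21 TPM in ESCs and EpiLCs, and *Itgb3* was at 5.55 TPM in ESCs, above its level with EED226.

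Among abundant genes, *Lama1* was 1.35-fold higher with EED226 (1.29 to 1.42), *Itga9* and *Itgav* 1.30-fold each, *Itga3* 1.27-fold and *Itga6* 1.25-fold, all below the limit. *Lamc1* had a ratio of 1.00 (0.985 to 1.02), *Lama5* of 1.04 (1.02 to 1.06), *Itgb5* of 1.00 (0.953 to 1.05) and *Col18a1* of 0.98 (0.969 to 0.999). With the length trend removed the log2 ratios of *Lama5*, *Lamc1* and *Lamb1* were -0.28, -0.23 and -0.05. The collagen IV pair kept its ratio, at 2.11 with DMSO and 2.14 with EED226. Among the 45 genes, the lowest TPM ratios belonged to *Col3a1* (0.84, 0.681 to 1.03), *Col6a2* (0.91), *Col5a2* (0.93), *Col8a1* (0.93), *Itga8* (0.95) and *Col1a1* (0.95), all feeder-type collagens but *Col8a1* and *Itga8*, and no feeder-type collagen of 8 passed the limit. Of the 4 primitive endoderm markers with at least 1 TPM in the DMSO or EED226 library, 2 passed the 1.5-fold limit upward and none downward. Among all genes these shares were 5.26% and 1.02%. The 2 markers were *Gata4* at 1.42 and 4.54 TPM and *Sox7* at 0.47 and 1.20 TPM. *Foxa2*, below 1 TPM in both, went from 19 reads to 7 (ratio 0.317, 0.112 to 0.786), while *Afp* and *Ttr* had no reads in either. The 12 markers summed to 7.38 TPM in ESCs, 35.6 TPM in EpiLCs, 8.03 TPM with DMSO and 12.6 TPM with EED226, with 2, 6, 3 and 4 markers at 1 TPM or above. *Dab2* (17.3 TPM) and *Cubn* (9.48 TPM) made up most of the EpiLC sum. The part of endoderm-like cells in the laminin levels was not tested.

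**Figure D5:**
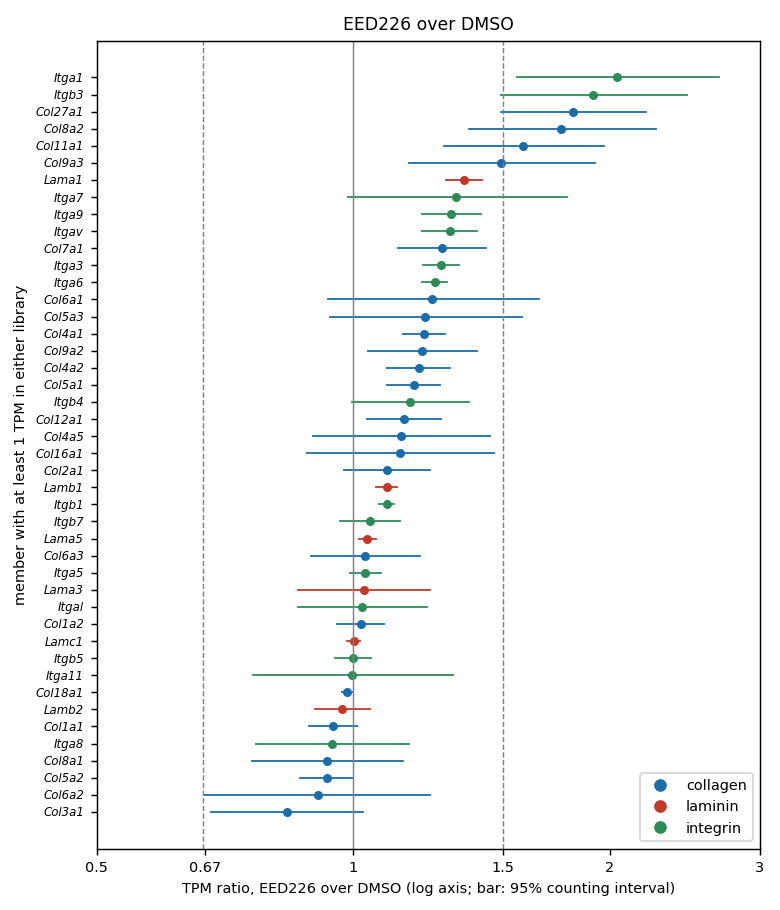
TPM ratio of EED226 over DMSO (log axis) for 44 of the 45 genes with at least 1 TPM in either library, with 95% counting intervals, a solid line at 1 and dashed lines at 1.5-fold in both directions. The points of *Itga1*, *Itgb3*, *Col27a1*, *Col8a2* and *Col11a1* lie above the upper limit and none lies below the lower one.

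Genes that act with these proteins were counted from lists. Of 28 genes of collagen assembly, the enzymes and chaperones that modify and fold collagen, 23 were at 1 TPM or above in ESCs or EpiLCs, of which 6 were higher and 4 lower in EpiLCs. These and the counts that follow stand beside 29.2% higher and 11.6% lower among all genes in EpiLCs, and 5.26% higher and 1.02% lower with EED226. *P4hb*, a subunit of prolyl 4-hydroxylase, was at 682 and 448 TPM in ESCs and EpiLCs. *Ppib*, a proline isomerase, was at 561 and 432 TPM and *Sec31a*, of the coat of vesicles leaving the endoplasmic reticulum, at 166 and 134 TPM. *Serpinh1*, the collagen chaperone HSP47, chosen after its values were seen, was at 12.9 TPM in ESCs, 209 TPM in EpiLCs, 25.4 TPM with DMSO and 33.1 TPM with EED226, 16.3-fold higher in EpiLCs (15.1 to 17.6). The 4 lower genes were *Lox*, at 9.04 and 0.57 TPM in ESCs and EpiLCs, *Pcolce* (195 and 28.5 TPM), *P3h1* (44.7 and 16.6 TPM) and *Crtap* (162 and 62.3 TPM). None of 25 passed the limit with EED226.

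Of 18 basement membrane partners, 4 were higher and 3 lower in EpiLCs of 14 counted, and 2 of 13 were higher with EED226. *Fn1*, fibronectin, was at 338 TPM in ESCs, 221 TPM in EpiLCs, 326 TPM with DMSO and 336 TPM with EED226. *Sparc*, a collagen-binding protein, was at 456, 213, 154 and 168 TPM, and *Bcam*, a receptor for *Lama5* laminins, at 179, 244, 209 and 202 TPM. *Nid1*, a nidogen that links laminin and collagen IV, chosen after its values were seen, was at 133, 14.8, 32.9 and 38.1 TPM. It was highest in ESCs, as *Lamc1* and *Col4a1* were. The other nidogen, *Nid2*, was above *Nid1* in each library, at 218, 169, 165 and 163 TPM. Its ratio in EpiLCs over ESCs was 0.78 (0.760 to 0.793). Of 24 integrin adaptors, 7 of 23 were higher and 3 lower in EpiLCs, and none of 22 passed the limit with EED226. These shares of the adaptors in EpiLCs were close to those of all genes. *Actn4* was at 455 and 378 TPM in ESCs and EpiLCs, *Actn1* at 176 and 161 TPM and *Bcar1* at 70.9 and 141 TPM. The first 2 encode actin cross-linkers and the last a focal adhesion scaffold. Of 18 matrix proteases and their inhibitors, 9 of 16 were higher and 2 lower in EpiLCs, and 3 of 16 were higher with EED226. *Timp1*, an inhibitor of matrix metalloproteases, was at 118 and 32.9 TPM in ESCs and EpiLCs, and the protease *Mmp11* at 27.0 and 26.3 TPM. With the length trend removed, the counts in EpiLCs were 5 higher and 6 lower for collagen assembly, 3 and 5 for basement membrane partners, 3 and 5 for integrin adaptors, and 7 and 2 for proteases, beside 21.2% and 15.5% of all genes. The median log2 ratios as deposited were 0.18, 0.44, 0.32 and 1.19 in the same order, beside 0.33 for all genes. With EED226 over DMSO they were 0.17, 0.12, 0.13 and 0.15, beside 0.085 for all genes.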

How the data were processed

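RNA of 4 cultures was sequenced as single reads from strand-marking mRNA libraries. According to the submitters' processing notes, featureCounts 1.6.2, STAR 2.6.0a, Bowtie2 2.2.4 and bcl2fastq 2.20 were used with the build mm10. The role of each tool and the strand setting of the counting are not given in the sources used here. The authors deposited a count of reads per gene and a TPM value for each library in 1 table. TPM recomputed from the deposited counts and lengths matched the deposited values. The 2 entries that share 1 symbol were left out of the counts over all genes. Of the 81 genes, 19 overlap exons of a gene on the other strand, none over more than 10% of its exonic bases.

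Ratios are TPM ratios with exact 95% (Clopper-Pearson) counting intervals from the split of the reads between 2 libraries. Reads carry no molecular identifiers, so intervals, and the floor of 3 reads used for a library at 0, cover counting error only. A count test needs replicates, so none was run. Calls used log2(TPM + 0.1), which understates the ratio of low genes, at 2-fold (EpiLC or DMSO over ESC) or 1.5-fold (EED226 over DMSO) with at least 1 TPM in either library. The length trend was the median log2 ratio of all genes in 20 groups of equal size along gene length. The median log2 ratio of the 11202 genes at 1 TPM or above in all 4 libraries was 0.23 in EpiLCs over ESCs, 0.076 in EED226 over DMSO and 0.16 in DMSO over ESCs.

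The genes and lists were chosen with earlier results of these data known. Named genes were all laminin chains, collagens and integrins with 10 TPM or above, the feeder-type collagens, the 5 highest and 5 lowest ratios of each comparison, the collagen IV pairs and 3 genes of each companion list by mean TPM. Some genes that this rule takes are counted in the totals and not reported here by name. Genes outside this rule were named after their values were seen. Positions are from GENCODE vM21. The calculations were tested on simulated data. The software was scipy 1.17.1, pandas 2.3.3, numpy 2.4.6 and matplotlib 3.10.9 under Python 3.11.15.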

Additional observations from a re-analysis of the deposited data

How the results depend on the processing

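No paired analysis was possible because each condition has 1 library, and for the same reason no library could be left out. In EpiLCs over ESCs, the median log2 ratio of 0.47 was 0.35 with 1 TPM added, 0.23 centred on the median gene, 0.34 with no filter on low values and 0.84 without feeder-type collagens. It turned negative with the length trend removed (-0.34) and with at least 5 TPM required (-0.92). The count of higher genes went from 22 to 13 of 52 with the length trend removed and to 8 of 28 at 5 TPM. Among all genes, the share that was higher went from 29.2% to 21.2% and 25% under the same settings. The log2 ratio of *Col7a1* went to -0.14 with the trend removed. The count of lower genes stayed within 1.5 times under every alternative run, between 12 and 22, with 28 to 79 genes tested. The share of all genes that was lower ranged from 9.47 to 19.2% under these alternatives. In EED226 over DMSO, the median of 0.17 was 0.13 with 1 TPM added, 0.097 centred, 0.0042 with the length trend removed, 0.15 with no filter, 0.13 at 5 TPM and 0.22 without feeder-type collagens. The count of 5 higher genes of 45 was 0 with 1 TPM added, 0 of 23 at 5 TPM and 0 at a 2-fold limit. It was 3 with the trend removed and 10 of 80 with no filter, and no gene was lower under any of these. Among all genes, 5.26% were higher as reported, 2.47% with 1 TPM added and 2.63% at 5 TPM. With the trend removed 3.59% of all genes were higher, and with no filter 9.13%. Alternatives for DMSO over ESCs were chosen after seeing the data. The median of 0.15 was 0.14 with 1 TPM added, -0.014 centred and -0.25 with the trend removed. The count of 15 higher genes was 8 with 1 TPM added and 8 with the trend removed, and the 8 lower became 14 with the trend removed. Among all genes, 15.6% were higher and 9.02% lower as deposited, and 11.7% and 10.8% with the trend removed. The cause of these shifts was not tested. At the depth of these libraries, 3 reads correspond to between 0.011 and 0.074 TPM for these genes, depending on length and library.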
